A study of Mus musculus with 30 samples.

Results

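The genes described here are 10 genes of heme traffic, heme breakdown and heme sensing, followed in murine erythroleukemia (MEL) cells with and without a working Abcb10 gene. They were chosen by name, as the porphyrin, glycine and heme carriers Tmem14c, Slc25a38, Flvcr1, Abcg2 and Slc48a1, the heme oxygenases Hmox1 and Hmox2, the biliverdin reductases Blvra and Blvrb, and the heme-binding repressor Bach1, and they were 10 of the 54532 genes in the count table. All 10 were counted in each library, and the lowest count of any of them in any library was 73. All 10 passed the filter on low counts in every comparison.

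Total RNA was sequenced from 30 libraries in 6 groups of 5. WT groups were MEL cells of the DS19 line, an erythroid leukemia line that makes hemoglobin when it is exposed to dimethyl sulfoxide (DMSO), taken at day 0, day 2 and day 5 in 1.5% DMSO. Abcb10-null groups were MEL cells of 1 clone made with CRISPR/Cas9, taken at the same days in the same medium, so that a difference between genotypes cannot be told apart from a difference between this clone and the parental line. The replicates were labelled as biological, but whether each was cultured separately was not stated, and the p-values measure the spread between these libraries. In these bulk samples fewer cells of a type and less RNA per cell cannot be told apart.

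Heme is finished inside mitochondria from glycine and succinyl-CoA, and both its precursors and heme itself must cross membranes on the way. Free heme is toxic, so a cell that makes much of it also exports it, binds it or breaks it down. Heme oxygenases open the ring to biliverdin, iron and carbon monoxide, and biliverdin reductases turn biliverdin into bilirubin. BACH1 sits with small MAF proteins on antioxidant response elements and represses genes such as Hmox1 until heme binds it, after which it leaves the DNA and is degraded. Developing red cells are known for running heme synthesis at a very high rate while keeping heme oxygenase low. Abcb10 itself encodes a transporter of the mitochondrial inner membrane that red cell precursors need for hemoglobin.

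Promoter sequence from RefSeq (GRCm38.p6), 250 bases before to 50 bases after an annotated start, was held for 8 of the 10 genes in 13 windows. No window was held for Hmox1 or Slc48a1. The core of the antioxidant response element, spelled TGACNNNGC and searched on both strands, was present in 1 window each of Flvcr1, Slc25a38 and Blvra, which is 3 of 13 windows, and in 12.4% of all 32851 promoter windows. The 200 bases before the start of these 3 genes are shown because BACH1 and its rivals bind such an element, with its letters in capitals. They came from chr1:191026191-191026390 on the minus strand for Flvcr1, from chr9:120110182-120110381 on the plus strand for Slc25a38 and from chr2:127070457-127070656 on the plus strand for Blvra.
Flvcr1: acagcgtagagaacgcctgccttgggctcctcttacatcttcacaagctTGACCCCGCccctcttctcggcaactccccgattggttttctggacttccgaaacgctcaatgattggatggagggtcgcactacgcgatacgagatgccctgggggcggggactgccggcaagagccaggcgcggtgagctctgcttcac
Slc25a38: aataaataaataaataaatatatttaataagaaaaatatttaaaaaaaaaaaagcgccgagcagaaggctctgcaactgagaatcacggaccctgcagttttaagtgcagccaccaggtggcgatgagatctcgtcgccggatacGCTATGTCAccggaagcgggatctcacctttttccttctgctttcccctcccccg
Blvra: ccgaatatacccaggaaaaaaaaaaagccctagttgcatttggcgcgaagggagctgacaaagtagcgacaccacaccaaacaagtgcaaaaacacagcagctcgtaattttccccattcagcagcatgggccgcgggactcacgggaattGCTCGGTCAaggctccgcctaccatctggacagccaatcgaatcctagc
The element began 151 bases before the start in Flvcr1, where it read in the sense of the gene, and 55 and 49 bases before the start in Slc25a38 and Blvra, where it read on the other strand. The longer Maf recognition element (by its consensus with 1 free base), the GATA factor letters AGATAA and the CACCC box CCACACCC were in 0 of the 13 windows. They were held by 0.00609%, 11.2% and 3.56% of all windows. A match describes these letters and is no evidence of binding.

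The libraries held 9906783 to 20157768 counts. Abcb10 (chromosome 8, 123952459 to 123983122, minus strand, GRCm38), the gene that was cut, was lower in Abcb10-null than in WT at each day. It stood at 67.2 to 79.4 against 112 to 126 CPM (counts scaled by library size, with TMM factors over all 30 libraries) at day 0 and at 177 to 237 against 1152 to 1264 CPM at day 5, where the log2 fold change was -2.54 (SE 0.12, adjusted p = 5.51e-08 by edgeR's quasi-likelihood test). In WT the summed level of 10 erythroid markers was higher at each later day. All 10 were called higher at day 5 than at day 0, beside 36.5% of all genes. In Abcb10-null the sums of day 2 (2707 to 3876 CPM) overlapped those of day 0 (2561 to 2949 CPM). From day 0 to day 5, 6 of the markers were called higher and 4 lower there, beside 33.9% and 33.3% of all genes. At day 5 the sum was 6098 to 7727 CPM in Abcb10-null against 11816 to 24017 CPM in WT. All 10 markers were called lower in Abcb10-null, beside 17.8% of all genes. WT day 5 replicate 5 had the 11816, whereas the other WT libraries of that day had 21022 to 24017 CPM, and fold changes of the 10 genes at day 5 are given with and without it. Abcb10-null day 2 replicates 2 and 5 also stood apart from replicates 1, 3 and 4, with 2707 and 2739 against 3314 to 3876 CPM of erythroid markers. Markers of macrophages (8 genes) summed to 1.13 to 14.7 CPM, those of myeloid and mast cells (6 genes) to 0.0644 to 5.92 CPM and those of fibroblasts (6 genes) to 0.667 to 22.9 CPM over all libraries. The medians of Marco, Mertk, Vcam1, Elane, Itgam, Ly6c2, Col1a2, Col3a1 and Dcn over the 30 libraries were 0. Cd68 and Csf1r had more than 3 counts in all 30 libraries (up to 9.54 and 5.79 CPM), Thy1 in 26 (up to 22.7 CPM) and Pdgfra in 20 (up to 2.91 CPM).

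**Figure D1:**
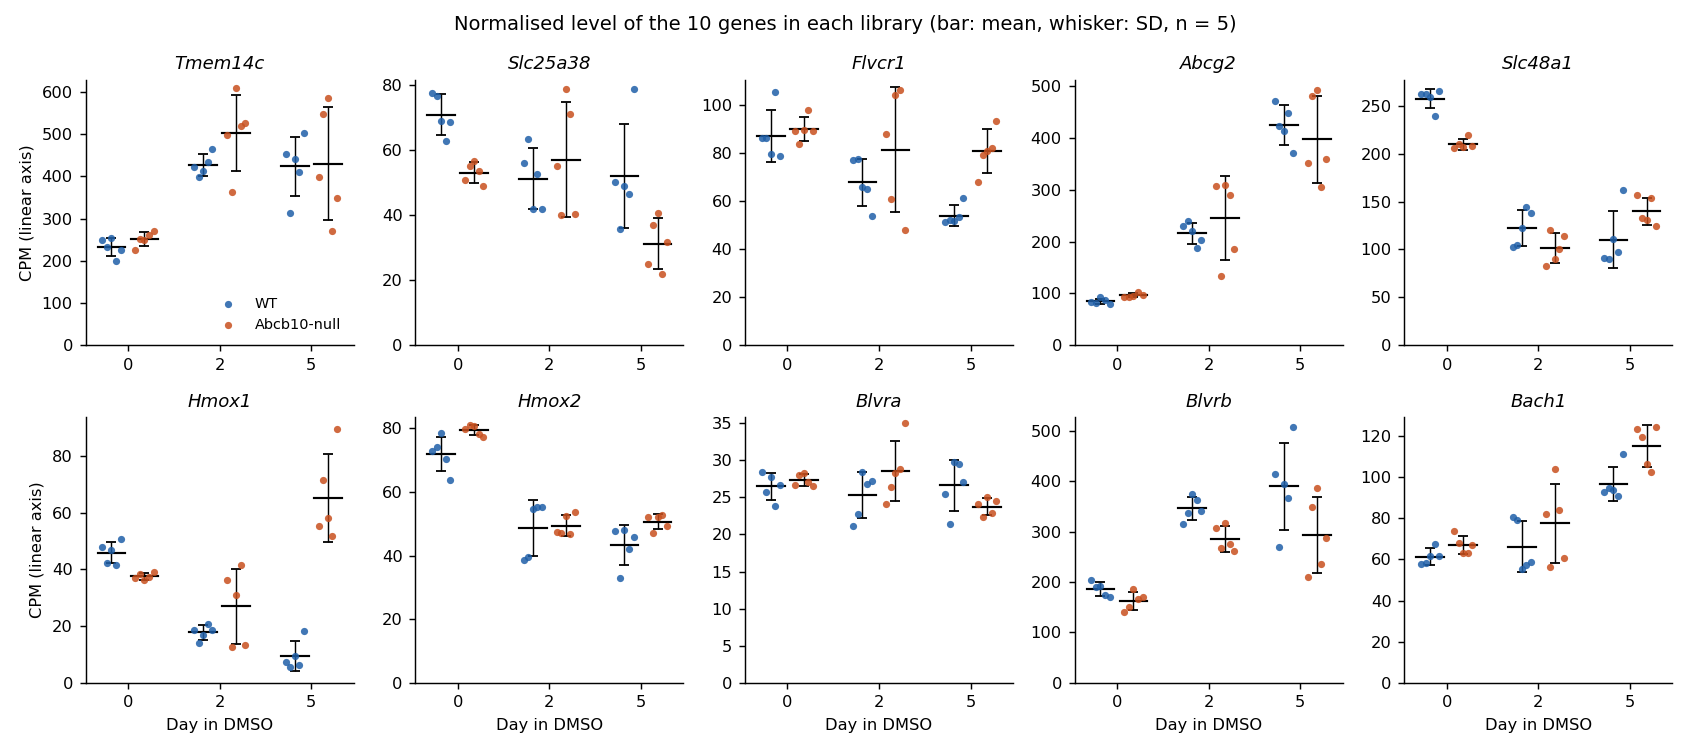
Level of each of the 10 genes in CPM (linear axis from 0) in WT (blue) and Abcb10-null (orange) libraries at days 0, 2 and 5 in DMSO, with 1 point per library in the order of replicates 1 to 5, a bar for the mean and a whisker for the SD. Hmox1 in the lower left panel went down over the days in WT and stood at 51.8 to 89.3 CPM in Abcb10-null at day 5, above all WT libraries of that day.

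The first question was how these genes moved as WT cells differentiated. Between day 0 and day 5 in WT, 9 of the 10 genes changed at an adjusted p under 0.05, beside 71.2% of all 12723 genes tested. Of these, 4 rose and 5 fell, beside 36.5% and 34.7% of all genes. Abcg2 rose most and Hmox1 fell most, so that the porphyrin exporter and the inducible heme oxygenase moved in opposite directions. From day 0 to day 2, 8 of 10 changed, beside 62.2% of all genes, and from day 2 to day 5, 4 of 10 changed, beside 33.4%. Since most genes of the table changed over the days, the counts of these 10 did not set them apart from the rest.

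Among the carriers, Abcg2 (chromosome 6, 58584523 to 58695676, plus strand), an exporter of porphyrins and heme at the cell surface, ranged from 79.1 to 92.6 CPM in WT at day 0, from 187 to 239 CPM at day 2 and from 370 to 470 CPM at day 5. No library of one day overlapped those of another. The rise from day 0 to day 5 was 5.03-fold (log2 2.33, SE 0.09, adjusted p = 4.56e-10). Tmem14c (chromosome 13, 41016292 to 41022586, plus strand), a mitochondrial inner membrane protein through which porphyrin precursors reach the last steps of synthesis, rose from 198 to 255 CPM at day 0 to 398 to 465 CPM at day 2, a log2 change of 0.88 (SE 0.08, adjusted p = 1.99e-06). Its level at day 5, 313 to 502 CPM, did not differ detectably from day 2 (log2 -0.01, SE 0.13, adjusted p = 0.979).

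Slc48a1 (chromosome 15, 97778520 to 97792692, plus strand), also known as HRG1, carries heme out of endosomes and lysosomes into the cytosol. It was at 240 to 265 CPM in WT at day 0 and at 103 to 145 CPM at day 2, and it fell by 1.23 on the log2 scale between day 0 and day 5 (SE 0.14, adjusted p = 5.06e-06). Flvcr1 (chromosome 1, 191005847 to 191026158, minus strand), an exporter of heme at the cell surface, was at 78.8 to 105 CPM at day 0 and at 51.2 to 61.4 CPM at day 5, a fall of 0.69 (SE 0.10, adjusted p = 3.71e-05). Slc25a38 (chromosome 9, 120110374 to 120124504, plus strand), the carrier that brings glycine into mitochondria for the first step of heme synthesis, fell by 0.45 over the same time (SE 0.17, adjusted p = 0.0265), with WT day 5 replicate 5 at 78.9 CPM, above all WT libraries of day 0. Without that library the log2 change of Slc25a38 was -0.65 (adjusted p = 0.000138). The call was lost with total count scaling (-0.34, adjusted p = 0.0826), without WT day 5 replicate 3 (adjusted p = 0.0564) and without replicate 4 of that day (adjusted p = 0.0644). Without replicate 5 the change of Slc48a1 was -1.41 and that of Flvcr1 -0.75.

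Among the enzymes of heme breakdown, Hmox1 (chromosome 8, 75093621 to 75100589, plus strand), the heme oxygenase that heme and oxidative stress induce, was at 47.7, 42.4, 46.9, 41.7 and 50.6 CPM in WT replicates 1 to 5 at day 0. At day 2 it was at 18.6, 13.9, 16.7, 20.9 and 18.6 CPM, and at day 5 at 7.36, 5.55, 9.55, 6.15 and 18.4 CPM. All WT libraries of day 2 and day 5 were below those of day 0, and replicate 5 was the highest of day 5. The fall from day 0 to day 5 was 4.87-fold (log2 -2.29, SE 0.27, adjusted p = 5.27e-06), or -2.69 on the log2 scale without replicate 5 of day 5. Hmox2 (chromosome 16, 4726361 to 4766742, plus strand), the constitutive heme oxygenase, fell by 0.73 (SE 0.11, adjusted p = 5.05e-05), from 63.9 to 78.5 CPM at day 0 to 33.1 to 48.1 CPM at day 5. Cdip1, on the opposite strand, shares 40.2% of the exon bases of Hmox2. The libraries were stranded, but whether reads were assigned by strand was not stated. Reads of the shared bases may thus have gone to either gene or to neither.

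Blvrb (chromosome 7, 27447978 to 27466144, plus strand), a flavin and biliverdin reductase that is abundant in red cells, rose from 171 to 204 CPM at day 0 to 316 to 375 CPM at day 2 and 269 to 508 CPM at day 5, a change of 1.07 between day 0 and day 5 (SE 0.14, adjusted p = 1.15e-05). Blvra (chromosome 2, 127070665 to 127097084, plus strand), the reductase of the main biliverdin isomer, was at 23.8 to 28.4 CPM at day 0 and at 21.4 to 29.8 CPM at day 5. Its log2 change was 0.01 (SE 0.11, adjusted p = 0.963), and it was the only member not called over that time in WT. Bach1 (chromosome 16, 87698945 to 87733346, plus strand) ranged from 57.6 to 67.7 CPM at day 0, from 55.5 to 80.6 CPM at day 2 and from 90.8 to 111 CPM at day 5. It rose by 0.65 from day 0 to day 5 (SE 0.09, adjusted p = 1.71e-05). The change from day 2 to day 5 was called (0.55, SE 0.13, adjusted p = 0.00483), and that from day 0 to day 2 was not (0.11, SE 0.11, adjusted p = 0.423) unless counts were scaled by their total (0.33, adjusted p = 0.0359). Without WT day 5 replicate 5 the changes from day 0 to day 5 were 0.79 for Tmem14c, 2.37 for Abcg2, -0.76 for Hmox2, 0.95 for Blvrb, -0.0043 for Blvra and 0.60 for Bach1.

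**Figure D2:**
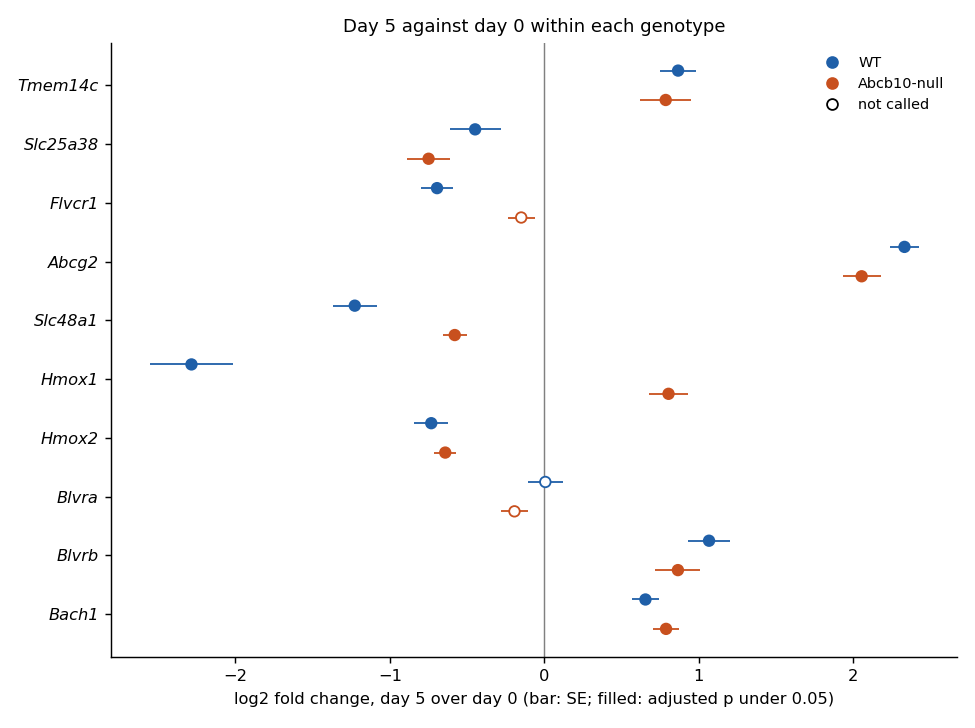
Log2 fold change from day 0 to day 5 (horizontal axis, with SE bars) of the 10 genes within WT (blue) and within Abcb10-null (orange), where filled points have an adjusted p under 0.05. Hmox1 lay at -2.29 in WT and at 0.80 in Abcb10-null, on opposite sides of 0, whereas Abcg2, Tmem14c, Blvrb and Bach1 lay above 0 and Slc25a38, Slc48a1 and Hmox2 below 0 in both genotypes.

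In Abcb10-null cells 8 of the 10 genes changed between day 0 and day 5, beside 67.2% of all 12915 genes. Of these, 5 rose and 3 fell, beside 33.9% and 33.3% of all genes. Abcg2 rose by 2.05 (SE 0.12), Blvrb by 0.86 (SE 0.15), Bach1 by 0.79 (SE 0.08) and Tmem14c by 0.79 (SE 0.17) on the log2 scale. Slc25a38 fell by 0.75 (SE 0.14), Hmox2 by 0.64 (SE 0.07) and Slc48a1 by 0.58 (SE 0.08), each with an adjusted p of 0.000538 or less by edgeR. Hmox1 rose by 0.80 (SE 0.13, adjusted p = 4.03e-05), and Flvcr1 was not called (-0.15, SE 0.09, adjusted p = 0.138).

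Over the shorter steps, 5 of 10 genes changed in Abcb10-null between day 0 and day 2, beside 43.1% of all genes, and 5 of 10 between day 2 and day 5, beside 31.0%. Slc48a1 was called in both steps and in opposite directions, from 206 to 219 CPM at day 0 to 82.8 to 120 CPM at day 2 and back to 125 to 156 CPM at day 5. Its first step was -1.02 (SE 0.11, adjusted p = 1.55e-05) and its second 0.46 (SE 0.13, adjusted p = 0.0139) on the log2 scale, and the Abcb10-null libraries of day 5 were all above those of day 2. The call of the second step was lost with total count scaling (0.40, adjusted p = 0.0532) and with all genes of at least 1 count (0.41, adjusted p = 0.0579). Hmox1 had -0.46 in the first step (adjusted p = 0.200), which was called with all genes of at least 1 count (-0.47, adjusted p = 0.0101), and rose by 1.28 in the second. In WT the second step of Slc48a1 was not called (-0.16, SE 0.18, adjusted p = 0.528).

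Whether a change over the days differed between genotypes was asked with an interaction term of genotype and day. For day 5 against day 0, 3 of the 10 genes had such a difference, Hmox1, Slc48a1 and Flvcr1, beside 31.5% of all genes tested. All 3 were in the direction of a higher level in Abcb10-null at day 5 than the WT course would give, beside 16.8% of all genes in that direction. The term for Hmox1 was 3.10 on the log2 scale (SE 0.31, adjusted p = 1.1e-07), that for Slc48a1 0.65 (SE 0.16, adjusted p = 0.00385) and that for Flvcr1 0.55 (SE 0.13, adjusted p = 0.00244). The terms of Hmox1 and Slc48a1 were called under each of the 8 other settings and without each library in turn, and that of Flvcr1 lost its call in a single fit of all 30 libraries (adjusted p = 0.0604). Without WT day 5 replicate 5 the terms were 3.50 for Hmox1, 0.82 for Slc48a1 and 0.59 for Flvcr1. The other 7 genes were not called, with terms from -0.29 for Slc25a38 (SE 0.23, adjusted p = 0.364) to 0.14 for Bach1 (SE 0.12, adjusted p = 0.394), and without that library from -0.32 for Abcg2 to 0.19 for Bach1.

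For day 2 against day 0, the term was called for Hmox1 alone of the 10 (0.89, SE 0.32, adjusted p = 0.0474), beside 22.8% of all genes. The call was kept under 2 of 8 other settings and in 2 of the 20 fits that left out a library, so it rested on the threshold.

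The second question was how Abcb10-null differed from WT at each day. At day 5, Hmox1 and Flvcr1 were higher and Slc25a38 was lower in Abcb10-null, which was 3 of 10 genes beside 37.6% of all 12676 genes tested. Higher calls were 2 of 10 beside 19.8% and lower calls 1 of 10 beside 17.8%. With total count scaling the calls over all genes turned from 2509 higher and 2260 lower to 2082 higher and 2759 lower. The share of called genes was therefore close to that of the whole table. Hmox1 had by far the greatest change of the 10, 6.91-fold, whereas each of the others differed by less than 1.7-fold. The median log2 fold change of the 10 genes was 0.12, beside -0.02 over all genes tested.

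**Figure D3:**
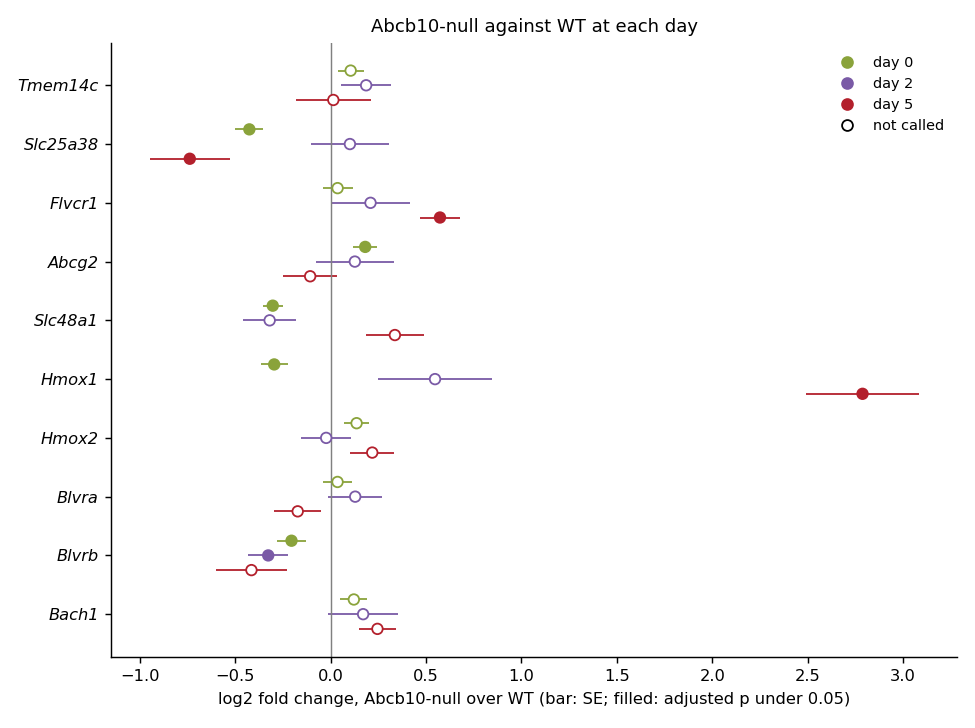
Log2 fold change of Abcb10-null over WT (horizontal axis, with SE bars) for the 10 genes at day 0 (green), day 2 (purple) and day 5 (red), where filled points have an adjusted p under 0.05. Hmox1 moved from -0.30 at day 0 to 2.79 at day 5, whereas the points of the other genes lay between -0.74 and 0.57.

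Hmox1 in Abcb10-null replicates 1 to 5 at day 5 was at 55.1, 71.7, 58.1, 51.8 and 89.3 CPM, against the 5.55 to 18.4 CPM of WT. The lowest Abcb10-null library was above the highest WT library. The log2 fold change was 2.79 (SE 0.30, adjusted p = 2.46e-05), or 3.17 without WT day 5 replicate 5. Across the 8 other settings it was called each time, at 2.70 to 2.88. The summed macrophage markers were highest in Abcb10-null day 5 replicate 4, at 14.7 CPM, and the 10 erythroid markers were all lower in Abcb10-null at day 5. The part of either in the Hmox1 difference was not tested.

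At day 2 Hmox1 in Abcb10-null was at 36.3, 12.5, 31.0, 41.4 and 13.5 CPM in replicates 1 to 5. Replicates 1, 3 and 4 were above the 13.9 to 20.9 CPM of WT, and replicates 2 and 5 were below it. The 2 low libraries were those with fewer counts from erythroid markers, and this was not tested. The comparison gave 0.55 (SE 0.30, adjusted p = 0.175), and 0.73 (adjusted p = 0.0369) without Abcb10-null replicate 2. At day 0 the direction was the opposite, with Abcb10-null at 37.0, 38.5, 36.1, 37.1 and 39.1 CPM, all below the 41.7 to 50.6 CPM of WT. That difference was -0.30 (SE 0.07, adjusted p = 0.00286).

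Flvcr1 at day 5 was at 67.7, 78.9, 80.9, 82.2 and 93.3 CPM in Abcb10-null and at 51.2, 52.0, 51.5, 53.3 and 61.4 CPM in WT. The groups did not overlap, which was also so for 23.9% of all genes at day 5. The log2 fold change was 0.57 (SE 0.11, adjusted p = 0.00117), or 0.61 without WT replicate 5, and it was called under all 8 other settings and without each library in turn. At day 0 Flvcr1 was at 83.9 to 97.9 CPM in Abcb10-null and at 78.8 to 105 CPM in WT, and the difference was not called (0.04, SE 0.08, adjusted p = 0.751). An antisense gene, A230020J21Rik, shares 15.6% of the exon bases of Flvcr1, and its own level was at most 0.650 CPM in any library.

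Slc25a38 at day 5 was at 25, 36.9, 40.6, 21.9 and 31.9 CPM in Abcb10-null and at 50.1, 35.8, 49.0, 46.6 and 78.9 CPM in WT. The groups overlapped through WT replicate 2. The log2 fold change was -0.74 (SE 0.21, adjusted p = 0.0144), or -0.55 (adjusted p = 0.0261) without WT replicate 5, the highest library. At day 0 Slc25a38 was already lower, at 48.9 to 56.8 CPM against 62.8 to 77.7 CPM (-0.43, SE 0.07, adjusted p = 0.000181), and at day 2 the groups lay within each other (0.10, SE 0.20, adjusted p = 0.731).

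The remaining genes were not called at day 5. Slc48a1 was at 156, 133, 131, 154 and 125 CPM in Abcb10-null and at 91.1, 90.0, 111, 96.8 and 162 CPM in WT, so that WT replicate 5 alone lay within or above the Abcb10-null range. The fold change was 0.34 (SE 0.15, adjusted p = 0.0959), and 0.50 (adjusted p = 0.00214) without that library. Bach1 was at 124, 120, 106, 102 and 124 CPM in Abcb10-null and at 92.9, 94.9, 93.6, 90.8 and 111 CPM in WT. Its fold change was 0.25 (SE 0.10, adjusted p = 0.0617), and 0.29 (adjusted p = 0.0252) without WT replicate 5. Bach1 was also called without Abcb10-null replicate 4 (0.29, adjusted p = 0.0447). Thus 3 of the 10 genes were called with all libraries and 5 of 10 without WT replicate 5. Calls over all genes also went up without that library, from 4769 to 5594.

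Blvrb had -0.42 (SE 0.19, adjusted p = 0.0936), Hmox2 0.22 (SE 0.11, adjusted p = 0.149), Blvra -0.17 (SE 0.12, adjusted p = 0.281), Abcg2 -0.11 (SE 0.14, adjusted p = 0.577) and Tmem14c 0.01 (SE 0.20, adjusted p = 0.962). Without WT replicate 5 the values were -0.31, 0.23, -0.18, -0.16 and 0.070 in the same order, and none was called. Blvrb was called without WT replicate 2 (-0.54, adjusted p = 0.0265) and without Abcb10-null replicate 3 (-0.55, adjusted p = 0.0407). It was also called in a single fit of all 30 libraries (-0.41, adjusted p = 0.0189). Cdip1, the opposite-strand neighbour of Hmox2, was called higher at day 5 (0.42, SE 0.09, adjusted p = 0.00291).

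At day 0, before DMSO acted, 5 of the 10 genes were called, beside 36.0% of all 12912 genes. Slc25a38 (-0.43), Slc48a1 (-0.30), Hmox1 (-0.30) and Blvrb (-0.21) were lower and Abcg2 (0.18) was higher in Abcb10-null, beside 16.2% of all genes lower and 19.7% higher. The libraries did not overlap for 4 of these 5, the exception being Blvrb, beside 22.9% of all genes. Slc48a1 was at 206 to 219 CPM against 240 to 265 CPM in WT (SE 0.05, adjusted p = 0.000218), and Abcg2 at 92.7 to 102 CPM against 79.1 to 92.6 CPM (SE 0.06, adjusted p = 0.0311). None of the 5 was called in a single fit of all 30 libraries, which took its spread from all days, and 3 of 10 were called without WT replicate 1, without WT replicate 2 or without Abcb10-null replicate 4, where Abcg2 and Blvrb lost their calls. Blvrb was also not called with total count scaling (adjusted p = 0.0888), without WT replicate 3 or without Abcb10-null replicate 1 or 2 (adjusted p = 0.0565, 0.108 and 0.107). Abcg2 was also not called with all genes of at least 1 count (adjusted p = 0.0767) or without WT replicate 5 (adjusted p = 0.0955).

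At day 2, 1 of the 10 genes was called, beside 31.8% of all 13053 genes. Blvrb was at 308, 267, 317, 275 and 261 CPM in Abcb10-null and at 316, 337, 375, 363 and 341 CPM in WT, with an overlap of 1 library on each side (-0.33, SE 0.10, adjusted p = 0.0306). The call of Blvrb was lost under 4 of 8 other settings, and without any 1 of WT replicates 2 to 5 or Abcb10-null replicates 1, 4 and 5 (adjusted p = 0.0527 to 0.0703). Without Abcb10-null replicate 2 a count of 3 of 10 was reached, with Slc48a1 (-0.39) and Hmox1 (0.73) called as well. Calls over all genes also went up without that library, from 4151 to 5357. The scatter of the Abcb10-null group at day 2 was wide, and the coefficient of variation was 49.2% for Hmox1, 33% for Abcg2, 32.1% for Flvcr1 and 30.9% for Slc25a38, against 14.7%, 9.63%, 14.6% and 18.2% in WT. In Abcg2, as in Hmox1, replicates 2 and 5 were the low libraries, at 134 and 185 CPM against 289 to 310 CPM.

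The balance within each pair of enzymes was taken as a share of CPM divided by the length of all annotated exons. This puts genes on a rough common scale, as the transcripts expressed may be shorter. Counts of Hmox2 may also have gained or lost reads through Cdip1, which shares 40.2% of its exon bases. Cdip1 was called lower in Abcb10-null at day 0 (log2 -0.27) and higher at day 5 (0.42). Hmox1 made up 44.7% ± 3.27 (SD, n = 5) of both heme oxygenases in WT at day 0 and 37.4% ± 1.04 in Abcb10-null. At day 2 the shares were 31.8% ± 3.80 and 38.8% ± 13.5, and at day 5 they were 20.6% ± 7.43 and 61.3% ± 6.08. At day 5 all Abcb10-null libraries, at 55.4% to 69.6%, lay above all WT libraries, at 15.6% to 33.6%. The difference of 40.7 percentage points became 43.9 without WT replicate 5. At day 5 Hmox1 thus provided the smaller share of heme oxygenase RNA in WT and the larger share in Abcb10-null. At days 0 and 2 its mean share was the smaller one in both genotypes. The exact permutation test (two-sided, 5 against 5) gave p = 0.00794 for days 0 and 5, the smallest p it can give with 5 against 5, and 0.286 at day 2 (adjusted p = 0.0238, 0.0238 and 0.286 over the 6 tests of shares).

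Of both biliverdin reductases in WT, Blvra made up 14% ± 0.714 (SD, n = 5) on day 0, 7.65% ± 0.529 on day 2 and 7.37% ± 1.18 on day 5. The shares in Abcb10-null were 16.2% ± 1.41, 10.3% ± 1.92 and 8.80% ± 2.05. The exact permutation p was 0.0238, 0.0159 and 0.206 at days 0, 2 and 5 (adjusted p = 0.0357, 0.0317 and 0.248). The share was higher in Abcb10-null by 2.22, 2.64 and 1.43 percentage points (1.01 at day 5 without WT replicate 5), and most of the biliverdin reductase RNA was Blvrb in every group.

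**Figure D4:**
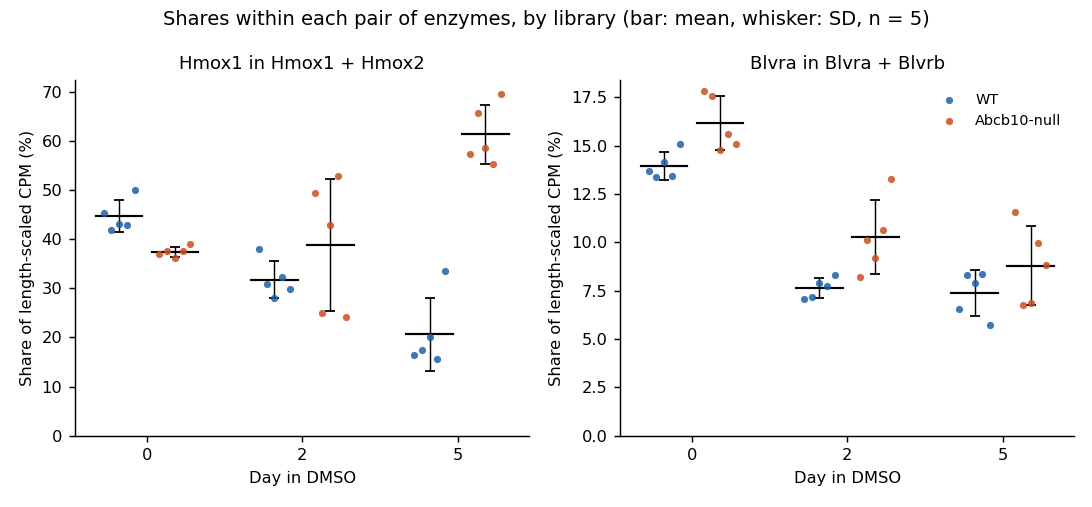
Share of Hmox1 in the length-scaled CPM of Hmox1 and Hmox2 (left, percent) and of Blvra in that of Blvra and Blvrb (right, percent) in each library at days 0, 2 and 5, with WT in blue, Abcb10-null in orange, a bar for the mean and a whisker for the SD of 5 libraries. The Hmox1 share of WT went down to 20.6% at day 5 while that of Abcb10-null stood at 61.3%, and the Blvra share was below 18% throughout.

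On the same scale of CPM per kilobase of exon, the order of the 10 genes in WT at day 5 was Tmem14c (464 ± 76.5), Blvrb (140 ± 31.1), Abcg2 (52.1 ± 4.67), Slc48a1 (40.0 ± 10.9), Hmox2 (19.6 ± 2.80), Slc25a38 (19 ± 5.83), Bach1 (15.7 ± 1.34), Blvra (10.9 ± 1.40), Flvcr1 (10.4 ± 0.824) and Hmox1 (5.36 ± 2.99). The neighbours Hmox2 and Slc25a38, Slc25a38 and Bach1, and Blvra and Flvcr1 lay within their SD of each other. In Abcb10-null at day 5 Hmox1 stood at 37.2 ± 8.82, between Abcg2 or Slc48a1 (48.7 ± 10.3 and 50.8 ± 5.26) and Hmox2 (22.9 ± 1.06). At day 0 the order began with Tmem14c (254 ± 24.2 in WT), Slc48a1 (93.6 ± 3.74) and Blvrb (66.9 ± 4.86).

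The other genes of the pathway were taken by list, at day 5. Of 18 other heme carriers and heme-binding proteins 11 were expressed enough to be tested, of which 2 were called higher and 5 lower, beside the 19.8% higher and 17.8% lower of all genes, which is the background of each list here. Their median log2 fold change was -0.26 beside -0.02 over all genes, and it was -0.45 without Abcb10-null replicate 4. Besides Abcb10, Abcb6, a porphyrin transporter, was lower (28.6 ± 4.74 against 82.7 ± 6.57 CPM, log2 -1.54, SE 0.13, adjusted p = 4e-06), and so was Tspo, a porphyrin-binding protein of the outer mitochondrial membrane (48.7 ± 9.87 against 120.7 ± 27.8 CPM, -1.31, SE 0.18, adjusted p = 0.000161). Of 8 genes for electron supply to heme oxygenase and for the fate of bilirubin, 5 were tested, 2 were higher and 2 lower in Abcb10-null. Por, the reductase that feeds electrons to heme oxygenase, was higher (33.7 ± 4.77 against 20.1 ± 3.67 CPM, 0.73, SE 0.15, adjusted p = 0.00217), as was Abcc1, an exporter of conjugates (0.64, SE 0.11, adjusted p = 0.00095). Cyb5r3, the reductase of cytochrome b5 that also reduces methemoglobin, was lower (-0.92, SE 0.15, adjusted p = 0.00041).

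Of 12 partners, relatives and regulators of BACH1 11 were tested, 1 was higher and 2 lower. Nfe2l1 was higher (93.2 ± 11.3 against 44.8 ± 17.9 CPM, 1.05, SE 0.20, adjusted p = 0.00136), and the erythroid factor Nfe2 and the stress factor Nfe2l2, which encodes NRF2, were lower (-1.01, SE 0.12, and -0.71, SE 0.12). Of 9 other heme sensors 7 were tested, 1 was higher and 2 lower, and 5 were called without WT replicate 5. Over all genes, leaving out that library gave 5594 calls instead of 4769. Nr1d2, a nuclear receptor that binds heme, was higher (1.28, SE 0.18, adjusted p = 0.000193), and Alas1, the housekeeping first enzyme of heme synthesis, was lower (-0.59, SE 0.14, adjusted p = 0.00437).

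Of 20 genes known as targets of BACH1 and NRF2 19 were tested, 5 were called higher and 7 lower, so that calls went in both directions, beside 19.8% and 17.8% of all genes. Their median log2 fold change was -0.31 beside -0.02 over all genes. Slc7a11, the cystine carrier for glutathione synthesis, was at 313 ± 69.0 against 31.5 ± 27.7 CPM (SD, n = 5), 9.91-fold higher in Abcb10-null (log2 3.31, SE 0.42, adjusted p = 8.88e-05). Without WT replicate 5 it was 15.9-fold higher (log2 3.99). The other genes named from these lists kept their direction and call without that library. Nqo1, a quinone reductase, was lower (9.39 ± 3.18 against 39.0 ± 4.39 CPM, -2.05, SE 0.22, adjusted p = 2.5e-05), and so was Srxn1, which repairs oxidised peroxiredoxins (38.7 ± 8.77 against 81.3 ± 4.70 CPM, -1.08, SE 0.14, adjusted p = 0.000105).

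**Figure D5:**
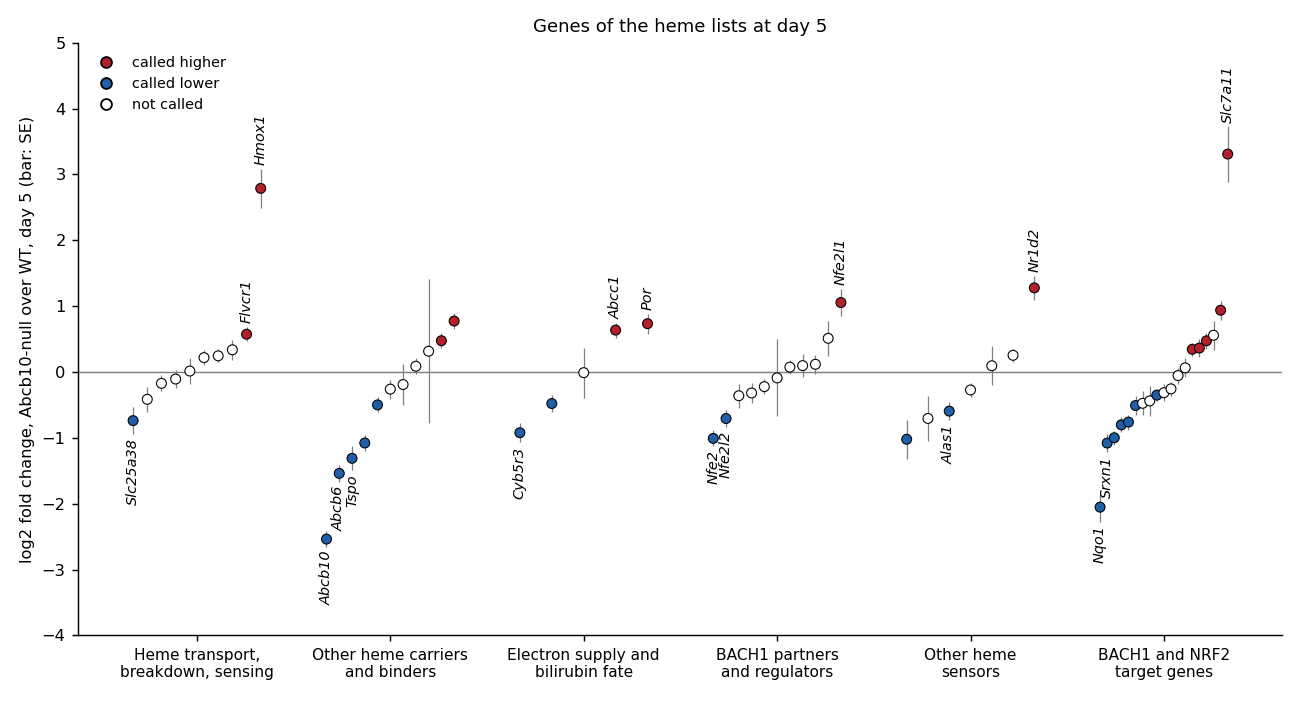
Log2 fold change of Abcb10-null over WT at day 5 (vertical axis, with SE bars) for the tested genes of 6 lists, each list sorted from low to high, with genes called higher in red, called lower in blue and not called in white. Hmox1 at 2.79 and Slc7a11 at 3.31 lay highest, and the targets of BACH1 and NRF2 spread from -2.05 to 3.31.

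Genes with the most similar course over the 30 libraries were ranked by Pearson's r of log2(CPM + 0.5) among 12152 genes, as a description of libraries that share days and genotypes. Hmox1 was most like Hspa9 (r = 0.954), Eif3c (0.944) and Phgdh (0.932). Hace1 (0.983) and Map4k5 (0.980) were among the genes closest to Abcg2. Slc48a1 was most like Pdia4 (0.960), Imp3 (0.948) and Hsp90b1 (0.944), Flvcr1 like Slc39a6 (0.910), Rab35 (0.892) and Etf1 (0.882), and Tmem14c like Mdp1 (0.920), Uros (0.915), an enzyme of heme synthesis, and Slc46a3 (0.903). Slc25a38 was most like Nr1h3 (0.859), Rbm10 (0.858) and Gtf2f1 (0.834), and Bach1 like Dcaf10 (0.932), Adam9 (0.929) and Rragc (0.927).

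Hmox2 was most like Mrpl30 (0.952), Rpl36al (0.949) and Polr1d (0.943), and Blvrb like Slc39a3 (0.941), Mgst3 (0.935) and Cdc25c (0.923). Blvra had the weakest likeness, with Swi5 (0.756), Scp2 (0.728) and Fn3krp (0.720). Among the 10 genes themselves the highest r was that of Slc48a1 with Hmox2 (0.858) and the lowest that of Abcg2 with Hmox2 (-0.823).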

How the data were processed

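Gene counts of total RNA (paired reads, ribosomal and globin RNA depleted) in 30 libraries of MEL cells were deposited by the authors, who trimmed with cutadapt, aligned with STAR 2.6.1b to GRCm38 with Ensembl 94 and counted with featureCounts 1.6.3. The libraries were stranded, but the strand and multimapping settings of the counting were not stated. From the counts, edgeR 4.0.16 (R 4.3.3; TMM, filterByExpr, quasi-likelihood F test) was fitted over all genes for each comparison with the libraries compared, and a call was a Benjamini-Hochberg adjusted p under 0.05. SE was taken as the log2 fold change over the square root of F. CPM used TMM library sizes of all 30 libraries, exon lengths and positions came from GENCODE M21, and 37 identifiers were not in it. Shares were compared by exact permutation. The fits were tested on simulated counts: at day 5, 60 of 100 tested genes changed by a log2 of 1 and 8 of 98 changed by 0.5 were called, with 1 false call among 12676 genes. Named genes of the lists were the at most 3 with the largest change among those called at day 5 whose libraries did not overlap. The members and the lists were chosen with earlier results of these data known. Counts as deposited totalled 9906783 to 20157768 over 54532 genes. Alternatives were DESeq2 1.42.0, other scalings, filters and sets of libraries, and leaving out each library. One gene in the ranking of similar courses is not reported here.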

Additional observations from a re-analysis of the deposited data

Results flagged for a closer look

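Among 72 groups of 5 libraries (10 genes and 2 shares in 6 groups each), 5 held a library that lay far from the other 4 by Dixon's test with a critical value of 0.71, beside the about 1 in 20 that chance gives. WT day 5 replicate 5 accounted for 3 of them. Flvcr1 was at 61.4 CPM there, against 51.2 to 53.3 CPM in the other WT libraries, Bach1 at 111 CPM against 90.8 to 94.9 CPM, and the Hmox1 share at 33.6% against 15.6% to 20.1%. The same library had the fewest counts from erythroid markers of its group. WT day 0 replicate 4 accounted for the other 2, with Flvcr1 at 105 CPM against 78.8 to 86.1 CPM and Slc48a1 at 240 CPM against 259 to 265 CPM.

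The change over days differed between genotypes in 4 tests of an interaction term. These were Hmox1 for day 5 against day 0 (3.10 on the log2 scale) and for day 2 against day 0 (0.89), Slc48a1 for day 5 against day 0 (0.65) and Flvcr1 for day 5 against day 0 (0.55). Hmox1 at day 2 lost its call under 6 of 8 other settings.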

How the results depend on the processing

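The calls of Hmox1, Flvcr1 and Slc25a38 at day 5 held under all 8 other settings and without each library in turn. Over these settings the log2 fold change was 2.70 to 2.88 for Hmox1, 0.50 to 0.58 for Flvcr1 and -0.82 to -0.73 for Slc25a38. In a single fit of all 30 libraries, the genes called at day 0 were 1584 instead of 4642 among all genes and 0 instead of 5 among the 10. The same fit called 0 instead of 1 of the 10 at day 2, 5 instead of 3 at day 5 and 5 instead of 3 of the other heme sensors. The members it added at day 5 were Slc48a1 and Blvrb, whereas leaving out WT replicate 5 added Slc48a1 and Bach1. Over all genes it called 5954 instead of 4151 at day 2 and 5737 instead of 4769 at day 5. Without globin, mitochondrial and small RNA genes 0 of the 10 were called at day 2.

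The interaction of genotype and day for day 2 was called for 1 of the 10 genes. The count was 0 with DESeq2 size factors, 0 with total count scaling, 0 with genes of at least 10 counts in every library, 0 without globin, mitochondrial and small RNA genes, 0 in a single fit of all 30 libraries and 2 with all genes of at least 1 count.

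When each library was left out in turn, the 10 genes gave 3 to 5 calls at day 0, 0 to 3 at day 2 and 3 to 5 at day 5 (5 without WT replicate 5). They gave 2 to 4 calls for day 5 against day 2 in WT, with 2 calls without WT day 2 replicates 1 or 4 or any of WT day 5 replicates 1 to 4, and 0 to 2 for the interaction at day 2. The other heme sensors gave 3 to 5 calls at day 5, with 5 without WT replicate 5 or Abcb10-null replicate 4. All genes gave 2665 to 5357 calls at day 2, where 4151 were called with all libraries. The count was 2665 when Abcb10-null replicate 1 was left out and 2744 when WT replicate 2 was. At day 5 all genes gave 5594 calls without WT replicate 5, where 4769 were called with all libraries.

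The replicate numbers showed no general pairing of the libraries, though pairing of some libraries was not excluded. The 75 pairs with the same number had correlations of deviations from the group means of -0.34 to 0.50 (median -0.027), and 10 of them were over 0.1. Of the 30 libraries, 5 correlated best on average with libraries of their own number in other groups. With the replicate number as a block, 0 of the 10 genes were called at day 2 and 0 for the interaction at day 2, and the other counts of calls stayed within 1.5 times. With the block Blvrb lost its call at day 0 (adjusted p = 0.0595), Tmem14c at day 5 was at -0.032, and the median log2 fold change of the other heme carriers at day 5 was -0.50 instead of -0.26.

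Each value whose sign changed was not called in the first place. With total count scaling these were Tmem14c at day 5 (-0.059), Blvra from day 0 to day 2 in WT (0.14), the day 2 interaction of Tmem14c (-0.057), Slc48a1 (-0.14), Blvra (-0.035) and Bach1 (-0.092) and the day 5 interaction of Hmox2 (-0.035). Tmem14c at day 5 was -0.0033 with DESeq2 size factors and -0.0026 with at least 10 counts in every library, where the day 2 interaction of Slc48a1 was -0.0085. Blvra from day 0 to day 5 in WT was -0.037 with all genes of at least 1 count, and Hmox2 at day 2 was 0.023 in a single fit of all 30 libraries. Leaving out libraries gave -0.012 to 0.099 for Flvcr1 and -0.015 to 0.052 for Blvra at day 0, -0.039 to 0.21 for Slc25a38 and -0.092 to 0.028 for Hmox2 at day 2, -0.14 to 0.15 for Tmem14c at day 5, -0.12 to 0.030 (day 2) and -0.063 to 0.077 (day 5) for Blvra against day 0 in WT and -0.21 to 0.027 for Flvcr1 from day 0 to day 2 in Abcb10-null. For the interactions it gave -0.14 to 0.14 for Abcg2, -0.063 to 0.087 for Slc48a1 and -0.069 to 0.18 for Bach1 at day 2, and -0.22 to 0.063 for Tmem14c at day 5.

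Total count scaling moved the median log2 fold change of all genes for day 2 against day 0 in WT from 0.0096 to 0.22. The share of higher genes among those called then went from 50.7% to 66.6%. Between genotypes it became 65.0% instead of 54.9% for day 0, 37.9% instead of 46.8% for day 2 and 43.0% instead of 52.6% for day 5, and for the interaction from 52.7% to 29.4% (day 2) and from 53.4% to 38.4% (day 5). The cause of these changes was not tested. In simulated counts for day 5, 8 of 98 tested genes changed by 0.5 on the log2 scale were called and 60 of 100 changed by 1. Only 100 genes were changed by each amount there, whereas 4769 of 12676 genes were called in the data. The adjustment of p is less strict when more genes change, so these rates do not tell which differences could be called here.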
